A study of Mus musculus with 32 samples.

Results

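The 29 genes described here encode the enzymes and regulators of sterol and fatty acid synthesis, and were taken as a named list from the 28827 genes of the 2 deposited RNA tables. The list holds 7 enzymes of the mevalonate pathway, 11 enzymes from squalene synthesis to cholesterol, 5 regulators of the SREBP pathway and 6 fatty acid enzymes, and every gene of it was present in both tables. The study tested whether the RNA-binding protein IGF2BP3 is required in mouse leukemia driven by the fusion oncogene MLL-Af4. It also mapped the RNAs that IGF2BP3 binds, and all groups carried this fusion. The Lin- cells were bone marrow cells depleted of lineage-positive cells, infected with a retrovirus carrying MLL-Af4, selected with G418 and grown in culture. Per the study's methods, the CD11b+ cells were selected with a CD11b antibody on magnetic columns from splenic tumors of mice that received MLL-Af4 bone marrow. They can therefore also hold CD11b+ cells of the host. The code names of the eCLIP libraries of both cell types begin with bm, which was not read as a tissue here. RNA was sequenced from 6 libraries of each cell type, 3 wild type (WT/MLL-Af4) and 3 with Igf2bp3 deleted in the germline (I3KO/MLL-Af4), and the deposited mean used here covers both genotypes of a cell type together. IGF2BP3 binding was mapped by eCLIP, in which RNA crosslinked to the protein with UV light is immunoprecipitated and sequenced, in 3 biological and 3 technical Lin- libraries and in 2 biological and 2 technical CD11b+ libraries. Each eCLIP library had a size-matched input (smInput), per the study's methods a small aliquot set aside before the protein-RNA complex was cut from a gel, and the study describes the eCLIP cells as WT/MLL-Af4. Donor and recipient females were 8 weeks old at transplantation per the study's methods, and the number of mice behind each library is not given in the sources used here.

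Cholesterol is made from acetyl-CoA through mevalonate, farnesyl pyrophosphate, squalene and lanosterol, and fatty acids are made from the same precursor by acetyl-CoA carboxylase and fatty acid synthase. Both programs are switched on by the SREBP transcription factors, which are held in the endoplasmic reticulum by SCAP and INSIG proteins when sterols are abundant and are released by cleavage when sterols are scarce. An intron of Srebf2 also hosts Mir33, a microRNA gene whose product is known to repress cholesterol export.

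The peak-calling libraries held between 4040 and 10054 filtered peaks, and the inputs held between 217 and 1885 peaks. The read depth of each eCLIP library is unknown, so the lack of a peak does not establish a lack of binding, and counts of peaks carry counting error beside the spread between libraries. Levels are the authors' mean normalized counts, scaled to 1000000 summed mean counts of a table and called CPM here (26867554 in Lin- cells and 20180664 in CD11b+ cells). Of the markers of stem and progenitor cells, Kit, Cd34 and Flt3 were 7.78-, 5.27- and 18.1-fold higher in Lin- cells, whereas Myb was 2.20-fold higher in CD11b+ cells. Of 5 myeloid markers, the 4 that both tables listed (Csf1r, Ly6c2, S100a8 and S100a9) were 2.53- to 25.1-fold higher in CD11b+ cells. Itgam, which encodes CD11b, was listed only in the CD11b+ table, at a mean of 17.0 normalized counts. It carried 23 peaks over the 4 CD11b+ libraries and 2 peaks in Lin- cells, in 2 biological libraries. Of its exon bases, 68.7% are shared with another annotated gene on the same strand, and the part of this overlap was not tested. The summed level of 3 erythroid markers was 5.10 CPM in Lin- cells and 117 CPM in CD11b+ cells. Of these, Hba-a1 and Hbb-bs were 289- and 27.6-fold higher in CD11b+ cells, whereas Klf1 was 3.72-fold higher in Lin- cells. The summed level of 3 B cell markers was 15.0 CPM in Lin- cells and 33.6 CPM in CD11b+ cells. That of 3 T cell markers, of which Cd3e was listed only in the CD11b+ table, was 0.108 and 0.675 CPM.

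RNA of the sterol and fatty acid genes was lower in CD11b+ cells for 27 of 29 genes, and so was that of 10796 of all 17879 genes tested. At a limit of 2-fold, 18 of 29 genes were higher in Lin- cells, where 27.7% of the 17879 genes tested were, and 0 of 29 were higher in CD11b+ cells, where 21.2% of all genes were. The median gene of the list was 2.21-fold higher in Lin- cells, and the median of all genes was 1.26-fold higher, a shift of -0.34 on the log2 scale. Measured from that median, 13 of 29 genes were at least 2-fold lower in CD11b+ cells (20.5% of all genes), and Mvd, Idi1, Nsdhl, Dhcr7 and Srebf1 were no longer past the limit. There is 1 mean per cell type, so these differences have no replicate check and no test, and in bulk RNA fewer cells of a type and less RNA per cell cannot be told apart. The 4 genes of cell division (Mki67, Top2a, Ccnb1 and Cdk1) were also lower in CD11b+ cells, 2 of them by at least 2-fold. Ccnb1, at 1.27-fold, was near the median of all genes. The summed level of the 4 was 1976 CPM in Lin- cells and 795 CPM in CD11b+ cells. The part of cell division, of erythroid RNA and of the 2 separate normalizations in the result was not tested. The Lin- cells were grown in culture and the CD11b+ cells were taken from splenic tumors. Cell type and growth conditions therefore cannot be told apart here.

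**Figure D1:**
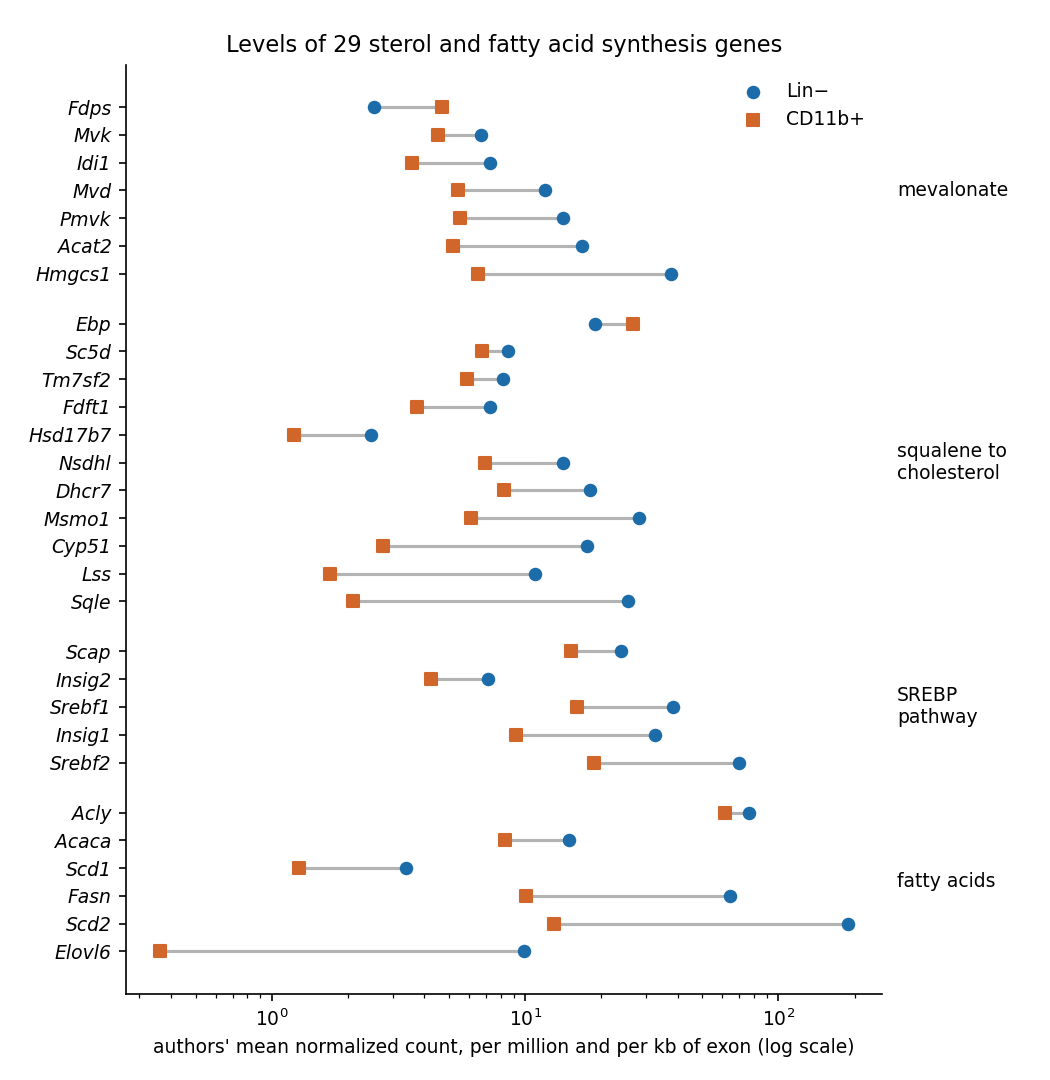
Levels of the 29 genes in Lin- cells (blue circles) and CD11b+ cells (orange squares), as CPM (from the authors' mean normalized count) per kb of exon on a log axis, grouped by role; there is 1 mean per cell type and so no error bar. The square lies left of the circle for all genes except Fdps and Ebp, and the widest gaps belong to Elovl6, Scd2 and Sqle.

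The fatty acid genes held the widest range. Scd2, a stearoyl-CoA desaturase that makes monounsaturated fatty acids, had a mean of 27478 normalized counts in Lin- cells and 1431 in CD11b+ cells. This was 14.4-fold in CPM, and Scd2 was the 46th most abundant of all genes in the Lin- table and ranked 3283 in the CD11b+ table. Fasn, fatty acid synthase, had means of 17301 and 2042 normalized counts, 6.36-fold apart in CPM. Elovl6, which lengthens the fatty acids that FASN makes, had means of 1637 and 44.9 and the largest fold of the 29 genes, 27.4-fold. The other desaturase, Scd1, was 2.64-fold higher in Lin- cells, at means of 440 and 125. Acaca, acetyl-CoA carboxylase, was 1.80-fold higher in Lin- cells and Acly, which makes cytosolic acetyl-CoA from citrate, 1.25-fold higher, so both stayed under the limit. Measured from the median of all genes, the Acly ratio of CD11b+ over Lin- was 0.01 on the log2 scale. In CPM per kb of exon, Scd2 had the highest level of the list in Lin- cells (187), followed by Acly (76.6), Srebf2 (70.0) and Fasn (64.1). In CD11b+ cells Acly led (61.3), ahead of Ebp (26.7), Srebf2 (18.8) and Srebf1 (16.0), and Scd2 stood at 13.0.

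Among the mevalonate enzymes, Hmgcs1, the synthase that forms HMG-CoA, was furthest apart, with means of 3510 normalized counts in Lin- cells and 459 in CD11b+ cells (5.75-fold in CPM). Acat2, which joins acetyl-CoA units, was 3.23-fold higher in Lin- cells and Pmvk, phosphomevalonate kinase, 2.55-fold higher. Mvd and Idi1, which make and isomerize isopentenyl pyrophosphate, were 2.21- and 2.04-fold higher. Mvk, mevalonate kinase, was under the limit at 1.49-fold. Fdps, farnesyl pyrophosphate synthase, went the other way, with means of 99.2 in Lin- cells and 138 in CD11b+ cells, for a ratio of 1.85, and measured from the median of all genes it was past 2-fold. Of the exon bases of Fdps, 26.7% are shared with another annotated gene on the same strand, and for Tm7sf2 12.1%, so their values are uncertain and the part of this overlap was not tested.

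Of the 11 enzymes from squalene to cholesterol, 6 were at least 2-fold higher in Lin- cells, where 27.7% of all genes tested were. Measured from the median of all genes, 4 of 11 were (20.5% of all genes). Sqle, the squalene epoxidase that commits squalene to sterols, stood apart with means of 1880 and 116 normalized counts, 12.2-fold in CPM. Lss, which closes the sterol ring, and Cyp51, the lanosterol demethylase, followed at 6.44- and 6.42-fold. Msmo1, which removes the methyl groups at carbon 4 together with Nsdhl, was 4.63-fold higher. Nsdhl and Dhcr7, the reductase of the last step, were 2.02- and 2.18-fold higher. Hsd17b7 lay just under the limit, and Fdft1, squalene synthase, reached 1.94-fold. Tm7sf2 and Sc5d were 1.39- and 1.27-fold higher in Lin- cells, and Ebp, the sterol isomerase, was 1.41-fold higher in CD11b+ cells.

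Of the regulators, Srebf2, whose product drives sterol genes, had means of 9548 and 1922 normalized counts (3.73-fold). Srebf1, whose product drives fatty acid genes, had means of 4429 and 1391 (2.39-fold). Insig1, the sterol-regulated retention factor, was 3.54-fold higher in Lin- cells. Its relative Insig2 was 1.68-fold higher and Scap, the escort of SREBP, 1.58-fold higher, both under the limit. Igf2bp3 itself was at 76.0 CPM in Lin- cells and 67.2 CPM in CD11b+ cells, over both genotypes.

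A further 13 genes of the same programs were counted as a list. Thrsp was listed in neither table. Of the other 12, 7 were at least 2-fold higher in Lin- cells (27.7% of all genes tested) and 0 in CD11b+ cells (21.2%). Acsl3, which activates long-chain fatty acids, was 6.36-fold higher, Me1, malic enzyme, 5.12-fold (at a mean of only 1.62 in CD11b+ cells), Stard4, a sterol carrier, 3.64-fold, Acss2, which activates acetate, 3.14-fold, Mbtps2, the site-2 protease of SREBP, 2.89-fold, Lpin1 2.73-fold and Ggps1 2.38-fold. The list of sterol export, esterification and oxysterol genes differed from this in its counts, with no test. Of 7 genes tested, 1 was at least 2-fold higher in Lin- cells and 1 in CD11b+ cells, beside the same shares of all genes. The median ratio of CD11b+ over Lin- was 0.97 in this list and 0.79 over all genes. Abca1, the cholesterol exporter, was 6.96-fold higher in Lin- cells, and Cyp27a1, which makes oxysterols, was 5.02-fold higher in CD11b+ cells. Ch25h was listed only in the Lin- table, at a mean of 3.42.

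The promoters of the list were searched for TCACNCCAC, a core of the sterol regulatory element that SREBP binds, on both strands of the RefSeq windows from 250 bases before to 50 bases after a start site (GRCm38.p6). Of the 24 members with a window, 1 held it, against 1.44% of 27025 genes. The match lay in the Hmgcs1 promoter at chr13:119690204-119690232, with the motif in capitals, and it starts 137 bases before the start site (-137).
Hmgcs1 promoter: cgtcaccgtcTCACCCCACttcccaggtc

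IGF2BP3 peaks lay on 14 of 29 genes in Lin- cells, where 26.5% of all genes of the table had one, and on 9 of 29 genes in CD11b+ cells, against 25.6%. Peak calling finds abundant RNAs more easily, so the members were also set beside genes of like level. Among genes whose mean reached 100 normalized counts, 13 of 28 members had a Lin- peak (51.9% of all such genes) and 9 of 28 a CD11b+ peak (47.9%). Among those whose mean reached 1000, 12 of 17 members had a Lin- peak (76.5% of such genes) and 4 of 7 a CD11b+ peak (68.4%). These shares were near the background of their level, except for the 9 of 28 in CD11b+ cells (32.1%), and none was tested. Neither cell type had a peak on Acat2, Pmvk, Mvd, Idi1, Fdft1, Cyp51, Msmo1, Hsd17b7, Ebp, Sc5d or Dhcr7. A total of 5 genes had peaks in both cell types (Srebf1, Scap, Insig1, Acaca and Acly), 9 in Lin- cells alone and 4 in CD11b+ cells alone (Mvk, Tm7sf2, Nsdhl and Insig2), each of those 4 with 1 peak in 1 library. No share over all genes is set beside this split, so nothing is read from it. In Lin- cells peaks were carried by 6 of 6 fatty acid genes, 4 of 5 regulators, 2 of 7 mevalonate enzymes and 2 of 11 enzymes from squalene to cholesterol. Of the fatty acid genes, Elovl6, Scd1 and Acly had theirs in 1 library each. The shares of all genes are the 26.5% and, at a mean of at least 1000, the 76.5% given above. The groups were not matched by level, and no test was made.

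**Figure D2:**
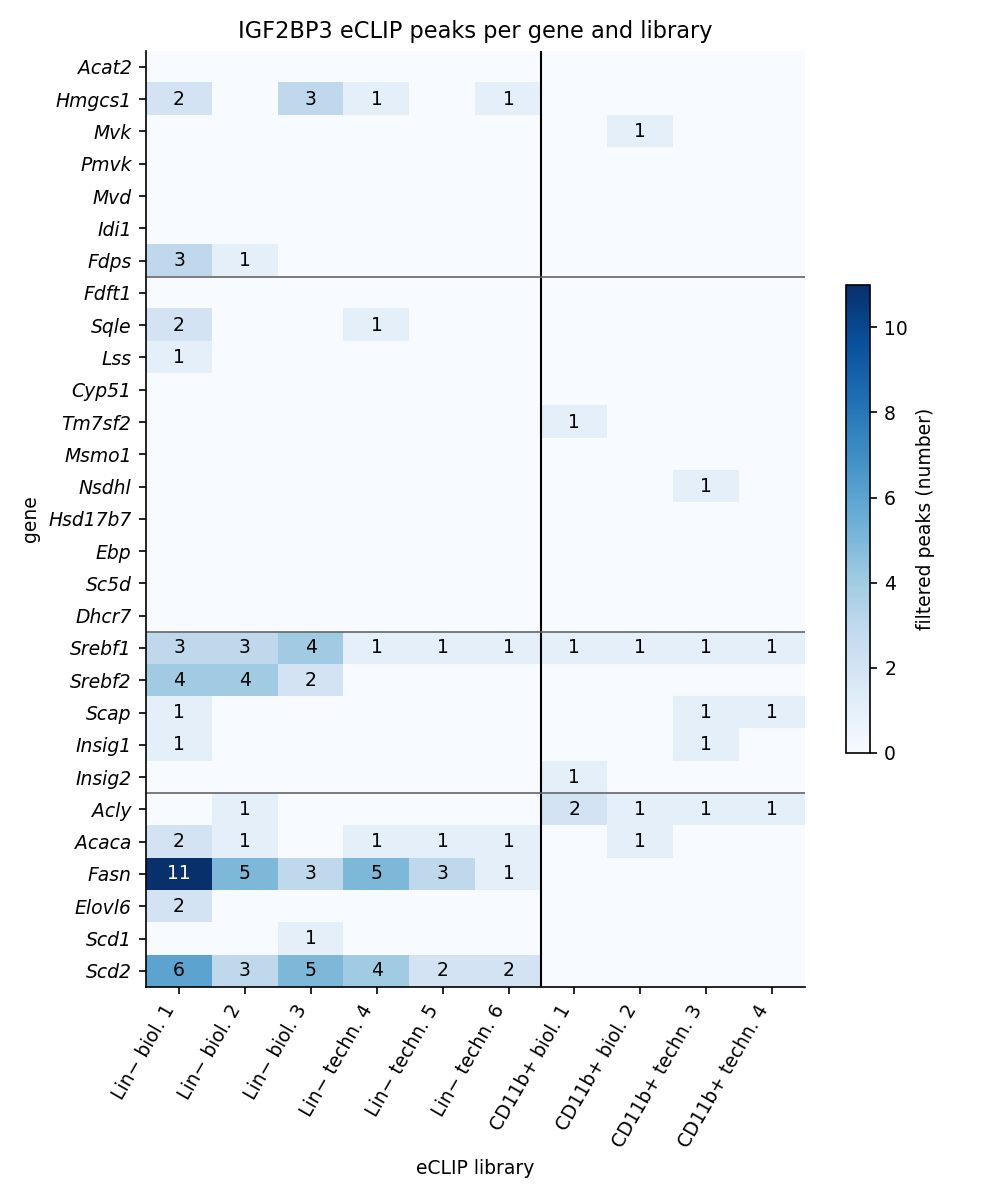
Filtered eCLIP peaks on each of the 29 genes (rows, grouped by role) in each of the 6 Lin- and 4 CD11b+ libraries (columns, divided by the black line); the number and the shade give the count and blank cells are 0. Fasn and Scd2 are filled across the Lin- columns and blank across the CD11b+ columns, and Srebf1 is filled in all 10.

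Peaks were concentrated on a few genes: of 100 Lin- peaks on the list, 73 lay on Fasn, Scd2, Srebf1 and Srebf2. Fasn carried 11, 5 and 3 filtered peaks in the 3 biological Lin- libraries and 5, 3 and 1 in the technical ones. Scd2 carried 6, 3 and 5 in the biological Lin- libraries and 4, 2 and 2 in the technical ones. Every Lin- library had both genes and no CD11b+ library had either. Their means in CD11b+ cells were 2042 and 1431, and the part of their lower RNA level in the lack of CD11b+ peaks was not tested. Srebf2 carried 4, 4 and 2 peaks in the biological Lin- libraries and none in the technical ones or in CD11b+ cells. Srebf1 carried 3, 3 and 4 peaks in the biological Lin- libraries, and 1 in each technical Lin- and each CD11b+ library. A peak in every biological Lin- library was found for these 4 genes (6.89% of all genes, and 25.1% of those with a mean of at least 1000). Both biological CD11b+ libraries had a peak on Srebf1 and Acly (10.2% of all genes, and 37.9% of those with a mean of at least 1000). Acly carried 2 and 1 peaks there and 1 in each technical library.

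Fasn, Scd2 and Srebf2 had a peak in every biological Lin- library and in no biological CD11b+ library, which held for 1.51% of the 23620 genes of both tables and for 19.5% of the genes with a peak in every biological Lin- library. Their RNA was also 6.36-, 14.4- and 3.73-fold more abundant in Lin- cells. Of the other genes, Hmgcs1 carried 2, 0 and 3 peaks in the biological Lin- libraries, Fdps 3, 1 and 0, Acaca 2, 1 and 0, and Sqle 2, 0 and 0. Elovl6, Lss, Scd1, Scap, Insig1 and Acly each had their Lin- peaks in 1 library.

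The share of filtered peaks that lay on the 29 genes was 0.516%, 0.179% and 0.207% in the biological Lin- libraries and 0.0587% and 0.0398% in the biological CD11b+ libraries. The groups did not overlap, and Lin- replicate 1 stood above the other Lin- libraries. The means were 0.301% ± 0.187 (SD, n = 3) and 0.0492% ± 0.0134 (SD, n = 2), a difference of -0.252 percentage points for CD11b+ minus Lin- (two-sided exact permutation test, p = 0.2, where the smallest p the design allows is 0.1). Without Lin- replicate 1 the difference was -0.144 percentage points. Without Fasn, Scd2, Srebf1 and Srebf2 it was -0.0503 percentage points. These 4 genes were left out after their peaks were seen, which by itself lowers the Lin- share, so this value is a description with no test.

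In none of the 10 smInput libraries did a peak carry the name of a member, and the smInput filter removed 0 of the 117 peaks on members. The smallest and largest share that a count of 0 allows were 0.159% and 1.38% of an input's peaks (3 peaks), and this limit lay above the share of the matching eCLIP library before the filter in every pair except that of Lin- replicate 1, so a difference was not detectable pair by pair at this number of peaks. Over the 5 biological libraries the share before the filter averaged 0.168%. With every input at 0, any library with a peak on a member exceeds its input, so the test over pairs could only return its smallest p and is not read here.

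**Figure D3:**
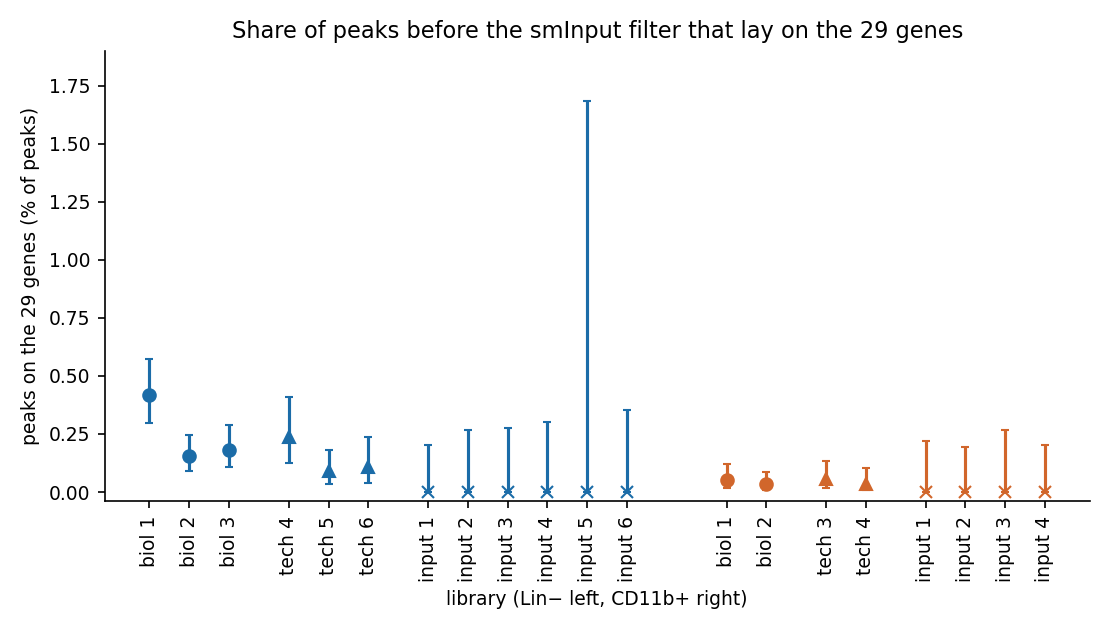
Share of each library's peaks, before the smInput filter, that lay on the 29 genes, in Lin- (blue) and CD11b+ (orange) biological (circles), technical (triangles) and smInput (crosses) libraries, with exact 95% intervals that cover counting error only. All 10 inputs are at 0% with wide intervals, and the Lin- eCLIP libraries lie between 0.0889% and 0.417%.

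Overlapping peaks of 1 cell type were merged into regions, which gave 53 Lin- and 13 CD11b+ regions on the list. In at least 2 biological libraries were 16 of the 53 Lin- regions (23.2% of Lin- regions over all genes) and 0 of the 13 CD11b+ regions (19.2%). By their centres, 45 of 53 Lin- regions (84.9%, Wilson 95% interval 72.9 to 92.1%) and 11 of 13 CD11b+ regions (84.6%, 57.8 to 95.7%) lay in introns, against 76.9% of 20608 Lin- regions and 82.7% of 17735 CD11b+ regions over all genes. Many Lin- regions touched an exon. A total of 33 of 53 (62.3%, 48.8 to 74.1%) crossed a splice site of the main transcript, 26 the acceptor at the end of an intron and 8 the donor at its start, with 1 over both. Fasn alone held 16 of the 53 regions and 13 of these 33. The intervals treat regions of 1 gene as independent, so the distance of this share from that of all genes is not read from them. Counted over their whole length, 22.6% of the Lin- regions and 76.9% of the 13 CD11b+ regions lay wholly in introns. No share over all genes is set beside these 2 values. Over all coding genes, 47.6% of Lin- regions crossed a splice site. In CD11b+ cells 1 of 13 regions (7.69%, 1.37 to 33.3%) did so, against 10.5% over all coding genes. The median distance from a region's centre to the nearest splice site was 21 bases in Lin- cells and 489 bases in CD11b+ cells, against 26 and 1084 bases over all coding genes. By library, 65.8%, 44.4% and 66.7% of the peaks on members crossed a splice site in the biological Lin- libraries, and 0% of 5 and 0% of 4 in the biological CD11b+ libraries. Over all coding genes these shares were 56.5%, 27.8% and 47.2%, and 8.32% and 9.82%. The members thus differed between cell types in the same direction as all genes.

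**Figure D4:**
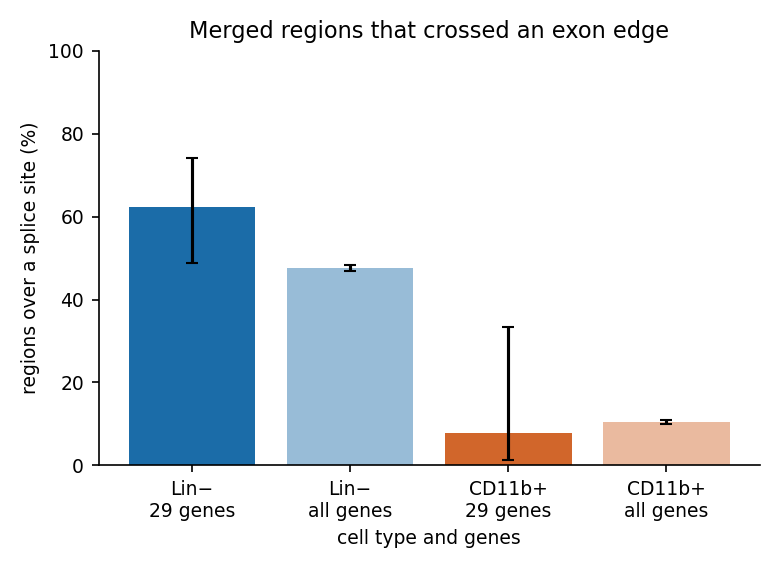
Share of merged regions that crossed an exon edge of the main transcript, for the 29 genes and for all coding genes in each cell type, with Wilson 95% intervals over regions. The bars for Lin- cells stand at 62.3% and 47.6%, those for CD11b+ cells at 7.69% and 10.5%.

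The sequences of the recurrent Lin- regions show these intron ends. Each is printed from 5′ to 3′ on the gene's strand (GRCm38), with intron bases in lower case and exon bases in capitals. They were chosen from the regions found in at least 2 libraries, technical ones included, on the genes with the most peaks and on the mevalonate enzymes. The Fasn intron 31 region was in only 1 biological library.
Fasn, end of intron 39, chr11:120808924-120808998: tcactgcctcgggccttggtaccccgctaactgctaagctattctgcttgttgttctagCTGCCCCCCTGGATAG
Fasn, end of intron 31, chr11:120811505-120811569: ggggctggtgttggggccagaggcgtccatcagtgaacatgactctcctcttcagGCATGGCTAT
Fasn, end of intron 18, chr11:120815787-120815847: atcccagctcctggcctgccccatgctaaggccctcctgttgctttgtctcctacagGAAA
Scd2, end of intron 1, chr19:44294852-44294911: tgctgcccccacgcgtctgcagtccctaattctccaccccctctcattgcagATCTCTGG
Scd2, end of intron 4, chr19:44301158-44301219: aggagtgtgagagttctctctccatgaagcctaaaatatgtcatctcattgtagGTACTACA
Scd2, start of intron 5, chr19:44301424-44301483: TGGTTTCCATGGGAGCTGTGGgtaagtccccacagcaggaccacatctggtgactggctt
Scd2, near the end of intron 5, chr19:44302940-44302998: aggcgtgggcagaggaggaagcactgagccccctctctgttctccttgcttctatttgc
Hmgcs1, end of intron 9, chr13:119705294-119705353: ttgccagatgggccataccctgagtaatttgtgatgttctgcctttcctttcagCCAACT
Fdps, end of intron 9, chr3:89094359-89094415: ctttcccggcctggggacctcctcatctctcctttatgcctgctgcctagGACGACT
Srebf1, across intron 3, chr11:60206293-60206405: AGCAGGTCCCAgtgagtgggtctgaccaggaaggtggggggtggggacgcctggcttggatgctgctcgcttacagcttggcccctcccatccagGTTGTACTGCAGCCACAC
Outside Scd2 intron 5, each intron printed here ends in the AG of the acceptor just before the capitals. The first Scd2 intron 5 region starts in the exon and runs over the GT of the donor, and the second stops short of the acceptor.

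Fasn lies on the minus strand of chromosome 11 (mm10, chr11:120805846-120824547). Its 16 Lin- regions comprised 15 in introns 15 to 39 of the 42 introns and 1 in exon 1, in the 5′ UTR. The centres of the 15 intron regions were 10 to 27 bases from a splice site. The region at the end of intron 39 held 39 and 12 reads in biological Lin- replicates 1 and 2, and 17, 6 and 6 reads in the 3 technical libraries. The region at the end of intron 18 held 23 and 7 reads in biological replicates 1 and 3 and 14 reads in technical replicate 4. Of the 16 regions, 5 were found in at least 2 libraries and 3 in at least 2 biological libraries.

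Scd2 lies on chromosome 19 (chr19:44293674-44306864, plus strand) and had 7 Lin- regions, 5 of them in at least 2 biological libraries. A pair of them were found in all 6 Lin- libraries. The first, at the start of intron 5, held 10, 5 and 11 reads in the biological libraries and 4, 6 and 9 in the technical ones. The second lay in exon 6, in the 3′ UTR, and held 10, 32 and 33 reads in the biological libraries and 15, 26 and 11 in the technical ones. Its summit is a run of a short repeat, of which a window of 30 bases is printed here, all of it exonic and in lower case with no part marked.
Scd2 3′ UTR, chr19:44305842-44305871: ctcgcttgctcgctcgctcgctcgctccgt
No peak was called there in CD11b+ cells.

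**Figure D5:**
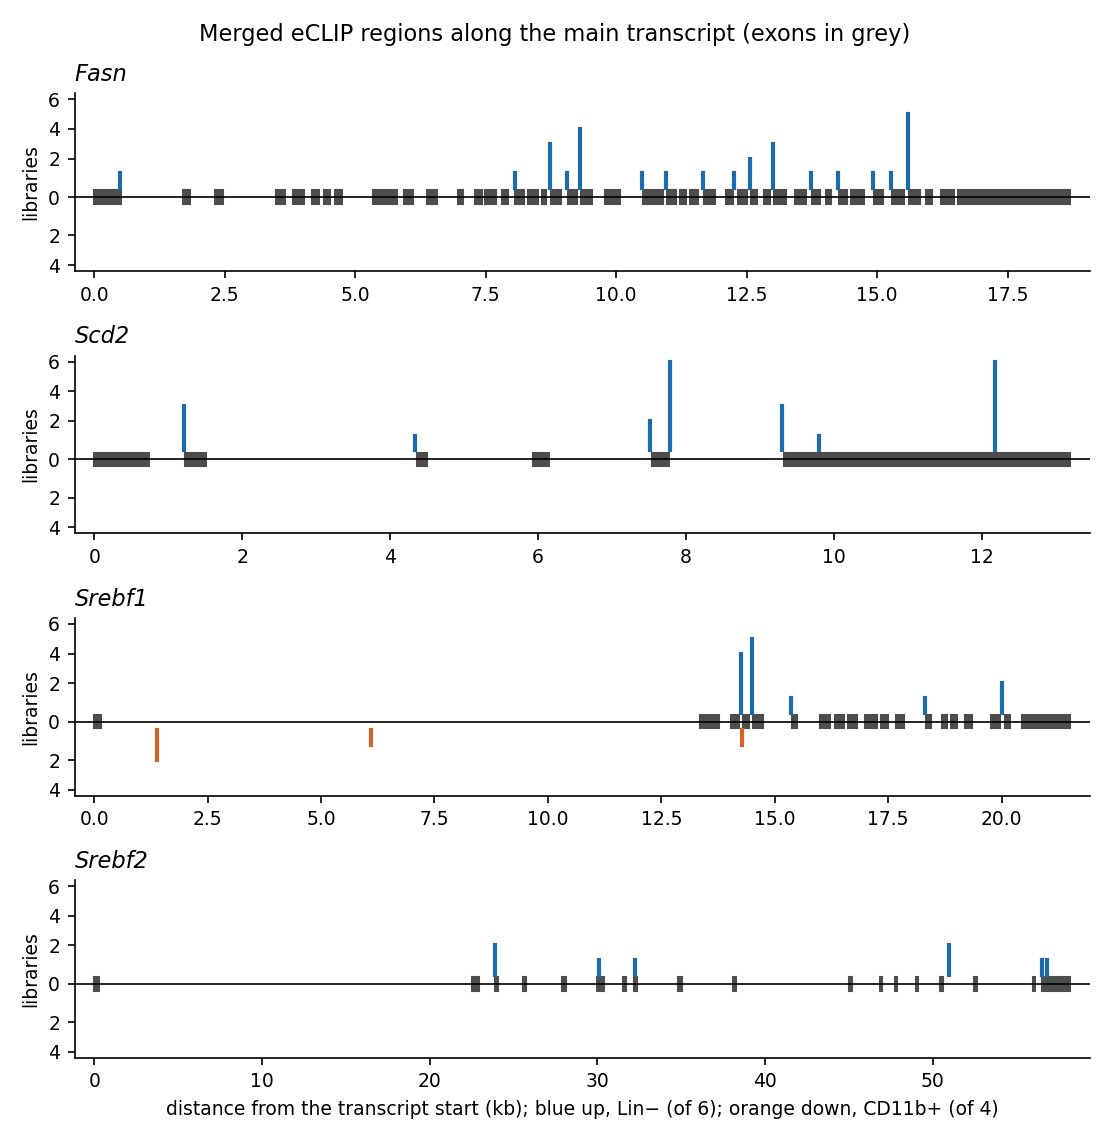
Merged eCLIP regions along the main transcripts of Fasn, Scd2, Srebf1 and Srebf2, in kb from the transcript start, with exons in grey; bars give the number of libraries with the region, upward for Lin- (of 6) and downward for CD11b+ (of 4). Fasn, Scd2 and Srebf2 carry upward bars alone, and on Srebf1 1 region is drawn in both directions.

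Srebf1 (chr11:60199089-60222581, minus strand) had 5 Lin- regions and 3 CD11b+ regions. The region across intron 3 held 16, 19 and 13 reads in the biological Lin- libraries and 8 in technical replicate 5. It overlapped a CD11b+ region of 5 reads in technical replicate 4. The region at the end of intron 4 held 13, 9 and 5 reads in the biological Lin- libraries. In both biological CD11b+ libraries the Srebf1 peaks lay deep in intron 1, at different places 1230 and 5961 bases from its start, with 7 and 4 reads. Srebf1 was thus called in every library of both cell types, and its regions in the biological libraries of Lin- and CD11b+ cells lay in different places.

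Srebf2 (chr15:82147181-82205379, plus strand) had 6 Lin- regions, and the one in intron 16, at chr15:82198126-82198188, lay on the Mir33 hairpin, of which it covered 63 of 69 bases. The hairpin is printed as RNA with both mature arms in capitals, and each mature arm is printed with its seed (bases 2 to 8) in capitals (RefSeq, GRCm38.p6).
Mir33 hairpin, chr15:82198122-82198190: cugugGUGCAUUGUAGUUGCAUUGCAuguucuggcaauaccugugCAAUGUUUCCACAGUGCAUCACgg
mmu-miR-33-5p: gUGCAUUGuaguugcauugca
mmu-miR-33-3p: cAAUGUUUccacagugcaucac
CLIPper named peaks here after Srebf2 or after Mir33, so both names were counted together. A peak lay on the hairpin in all 3 biological Lin- libraries, in technical replicate 5 and in none of the 4 CD11b+ or 10 smInput libraries. In biological replicate 2 the hairpin was divided into a peak of 24 bases over the 5p arm with 11 reads and a peak of 39 bases over the 3p arm with 10 reads. In biological replicate 1 a single peak of 61 bases ran from the first base of the 5p arm nearly to the end of the 3p arm, with 5 reads. In biological replicate 3 the same stretch was called under both gene names, with 8 reads in each peak, and these were the 2 Srebf2 peaks of that library. Outside the hairpin, Srebf2 had 4, 2 and 0 peaks in the biological Lin- libraries, so a peak in every biological Lin- library and no biological CD11b+ library then held for 2 genes, Fasn and Scd2. Of the other Srebf2 regions, the one at the end of intron 2 held 13 and 6 reads in biological replicates 1 and 2.

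Srebf1 regions also overlapped annotated hairpins, Mir6921 by 70 bases at the start of intron 17 and Mir6922 by 40 bases at the end of intron 12. In all, 3 of 53 Lin- regions on the list lay over a hairpin, and 183 of 20608 Lin- regions over all genes did so (0.888%). In CD11b+ cells no region of the list did, and 0.569% of all regions did. The eCLIP reads of a hairpin inside an intron cannot be divided between the host's precursor RNA and the microRNA with these files.

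Acly, the member with the highest level per kb in CD11b+ cells, had a CD11b+ region that was found in 1 biological library and in both technical libraries. It lay in intron 16 (chr11:100496391-100496472, minus strand), 467 bases from a splice site, with 18 reads in biological replicate 1 and 8 and 4 reads in the technical libraries.
Acly, intron 16: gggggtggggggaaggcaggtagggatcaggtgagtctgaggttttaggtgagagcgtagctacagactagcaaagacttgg
A second Acly region, in the 3′ UTR, was called in 1 library of each cell type with 6 reads in Lin- and 5 reads in CD11b+ cells. Acaca had a Lin- region in 5 of 6 libraries that lay in its annotated span but outside the transcripts of the basic set, and in an intron of the full set. It held 14 and 4 reads in biological replicates 1 and 2 and 7, 5 and 4 in the technical libraries, and its sequence is a repeat of CTCTGC units.
Acaca, chr11:84152013-84152103: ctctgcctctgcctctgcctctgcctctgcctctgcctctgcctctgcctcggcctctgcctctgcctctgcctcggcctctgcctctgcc
A second Acaca region, in intron 10, was called in 1 library of each cell type with 4 reads in each, over a run of CA repeats.
Acaca, intron 10, Lin-, chr11:84233372-84233401: acacacacacacacacacacacacacacac

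CA-rich RNA is the known preference of IGF2BP proteins. The 6-mers ACACAC and CACACA, which overlap each other, were searched on the transcript's strand. They were in 4 of 53 Lin- regions of the list (7.55%, Wilson 95% interval 2.97 to 17.9%) against 8.35% of all Lin- regions, and in 1 of 13 CD11b+ regions (7.69%, 1.37 to 33.3%) against 17.0% of all CD11b+ regions. A region without them may hold other CA-rich letters.

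Among the further genes of these programs, 7 of 12 had a Lin- peak (26.5% of all genes, 76.5% of those with a mean of at least 1000) and 6 of 12 a CD11b+ peak (25.6% and 68.4%). Mbtps1, the site-1 protease of SREBP, had Lin- peaks in all 3 biological libraries, and Aacs, Elovl1, Elovl5 and Lpin1 in 2 of them. No gene of that list had a CD11b+ peak in both biological libraries (10.2% of all genes, and 37.9% of those with a mean of at least 1000). A peak in 2 of 3 Lin- libraries is a looser rule than in 2 of 2 CD11b+ libraries, so these counts are not compared. Of 8 sterol export, esterification and oxysterol genes, 4 had a Lin- peak and 5 a CD11b+ peak, against the same shares, and nothing is read from either count. Soat1, which esterifies cholesterol, had peaks in all 4 CD11b+ libraries and in 0 Lin- libraries, at 129 CPM in Lin- cells and 147 CPM in CD11b+ cells. Abcg1, a sterol exporter, and Mylip, which degrades lipoprotein receptors, had peaks in 2 biological libraries of each cell type, and Nr1h2, a liver X receptor, in 2 biological Lin- libraries and 1 CD11b+ library.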

How the data were processed

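The authors' DESeq2 tables, 1 per cell type, gave the mean normalized count of each gene over WT and I3KO libraries together (signal values: the authors divided read counts by size factors; tables were normalized separately; reads were mapped to mm10 with STAR 2.5.3a per the submitters' processing notes). The deposited comparison columns (fold changes, their errors, p-values and peak flags of I3KO against WT) were not used, so genotypes are not compared here. The deposited eCLIP peaks were called by the authors per library with CLIPper, before and after removal of peaks overlapping smInput, and carry a CLIPper p-value (at most 0.05), a gene ID and the reads in the peak. The labels mark the technical libraries and do not state which biological library each repeats, although their code names run in parallel. Whether biological replicates are separate mice or cultures is not stated, so p-values measure the spread between these libraries.

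Means were scaled to 1000000 summed mean counts of their table (CPM). Genes with a mean of at least 10 in either table and above 0 in both were tested against a 2-fold limit. Peaks went to members by gene ID. Regions were peaks of 1 cell type that overlapped by at least 1 base on the same strand with the same gene ID, placed by their centre in GENCODE M21 (basic set, GRCm38); a spliced copy of the genome matched the main transcript of 29 of 29 members. Shares of peaks were compared over biological libraries by exact permutation, two-sided. Intervals (95%, Wilson for regions, exact for libraries) and floors of 3 peaks cover counting error only. The Wilson intervals treat regions of 1 gene as independent. The functions were tested on simulated data. Python 3.11.15, scipy 1.17.1, pandas 2.3.3, pysam 0.24.0 and samtools 1.23.1 were used. The members and lists were chosen with earlier results of these data known. All 29 members are named; further genes are named where they were at least 2-fold apart or had a filtered peak in at least 2 biological libraries of a cell type. Splice-site shares, the hairpins, the share without Fasn, Scd2, Srebf1 and Srebf2, and the count of genes in every Lin- and no CD11b+ library were chosen after seeing the data. Alternatives covered the scaling, minimum mean, filter, CLIPper p, libraries, gene assignment and annotation.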

Additional observations from a re-analysis of the deposited data

How the results depend on the processing

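Levels rest on 1 mean per cell type and peaks on libraries of unknown depth, with 3 Lin- and 2 CD11b+ biological replicates (smallest exact permutation p = 0.1). Of the other results under the alternatives, 50 that answer a comparison and 151 of single genes or lists kept their direction and side of the limit or, for counts, stayed within 1.5 times the reported count. Shares of regions were counted here if they lay inside the reported interval. Many of these could not have changed. The minimum mean alters no member's ratio, and the smInput filter removed no peak on a member. The comparison of shares between cell types over biological libraries allows no p below 0.1, so it could not pass 0.05. The Acly ratio changed sign with the median of gene ratios as the scaling (0.01 on the log2 scale). The cause of the changes below was not tested, except where fewer libraries or another definition makes them. The count at least 2-fold higher in Lin- cells was 13 with the median of gene ratios as the scaling, 23 without scaling and 16 without the top 100 genes, and 1 gene (Fdps) was then higher in CD11b+ cells under the first of these. Members with a filtered peak fell from 14 to 7 in Lin- cells and from 9 to 2 in CD11b+ cells when 2 biological libraries were needed, and to 8 and 2 at a CLIPper p below 0.001. Over biological libraries alone they were 9 to 13 in Lin- cells and 4 in CD11b+ cells without 1 replicate each; the lowest Lin- value came without replicate 1. The count of members in every biological Lin- library and no biological CD11b+ library was 4 at a CLIPper p below 0.001 and 2 with technical libraries required or hairpin peaks left out. The share difference was -0.193 percentage points with technical libraries added (exact permutation test, p = 0.0238, which treats technical libraries as replicates) and ran from -0.313 to -0.144 without 1 replicate each. With the replicate block, which pairs replicates 1 and 2 that share only a number, it was -0.299 percentage points (exact permutation test over 2 pairs, p = 0.5, the smallest they allow). The excess over smInput, whose shares are all 0, was 0.168 percentage points with no replicate block and 0.137 with technical pairs added. At a CLIPper p below 0.001 it was 0.136, where biological CD11b+ replicate 2 had no peak on a member. Apart from that setting, its p-values are the smallest each layout allows. None of them is read, and technical pairs are not independent. The excess ran from 0.106 (without Lin- replicate 1) to 0.202 without 1 pair each. No other result has a paired analysis because counts and shares over merged regions come from no test. The intron share of Lin- regions was 22.6% when every base had to be intronic and 71.7% with the comprehensive annotation. The share of CD11b+ regions over a splice site was 0% in biological libraries alone.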
